A study of Homo sapiens with 15 samples.

Results

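The Sm ring and the proteins of the U1 and U2 small nuclear ribonucleoproteins (snRNPs) were followed here as mRNAs. The members were the genes of the deposited table whose symbol was SNRPA, SNRPB, SNRPB2, SNRPC, SNRPD1, SNRPD2, SNRPD3, SNRPE, SNRPF or SNRPG, and all 10 were found among 12261 genes. RNA came from HEK-293 Trex, an established human embryonic kidney cell line with a doxycycline-inducible promoter. Separate lines expressed CLIP-tagged UPF1 isoform 1 (UPF1-1), CLIP-tagged UPF1 isoform 2 (UPF1-2) or GFP, and cells of every line were given 200 ng/mL doxycycline. Total RNA was sequenced from the 3 lines, and the RNA held by affinity-purified UPF1 (IP) from both UPF1 lines, with 3 libraries in each of the 5 groups. Each construct was in its own line, so effects of a protein and differences between the lines cannot be told apart. A matching GFP purification was not analysed here, so an IP value states recovery relative to total RNA and not relative to a background purification. The tagged UPF1 was added to the endogenous protein, which the cells of all groups still had.

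UPF1 is an RNA helicase that acts in nonsense-mediated mRNA decay, and its isoforms differ in a regulatory loop of the helicase core. The Sm proteins (encoded by SNRPB, SNRPD1, SNRPD2, SNRPD3, SNRPE, SNRPF and SNRPG) close into a ring around a uridine-rich site of the spliceosomal snRNAs, and the ring is loaded in the cytoplasm by the SMN complex before the particle returns to the nucleus. SNRPA and SNRPC encode the A and C proteins of the U1 snRNP, which recognises the 5′ splice site. SNRPB2 encodes U2B″ of the U2 snRNP, which recognises the branch point, and SNRPA1 encodes the A′ protein that partners U2B″. SNRPB is known for an alternative exon with a premature stop codon through which SmB/B′ limits its own mRNA. The table gives 1 transcript per gene, and values for separate SNRPB transcripts were not analysed here.

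The results in total RNA turn on SNRPB2 and SNRPB, so the bases upstream of their start sites are shown first. Promoter windows were taken from RefSeq, build GRCh38.p14, as the 250 bases before each annotated start, and 9 of the 10 genes matched. Capitals mark CCGGAAG, the core motif of ETS-family transcription factors, or its reverse complement CTTCCGG. Each sequence is written 5′ to 3′ on the strand of its gene. SNRPB lies on the minus strand at chr20:2470790-2471039 and SNRPB2 on the plus strand at chr20:16729776-16730025.
SNRPB: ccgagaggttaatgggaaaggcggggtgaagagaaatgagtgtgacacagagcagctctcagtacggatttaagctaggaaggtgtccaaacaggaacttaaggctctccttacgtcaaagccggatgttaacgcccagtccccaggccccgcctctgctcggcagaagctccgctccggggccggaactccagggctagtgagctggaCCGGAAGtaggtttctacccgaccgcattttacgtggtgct
SNRPB2: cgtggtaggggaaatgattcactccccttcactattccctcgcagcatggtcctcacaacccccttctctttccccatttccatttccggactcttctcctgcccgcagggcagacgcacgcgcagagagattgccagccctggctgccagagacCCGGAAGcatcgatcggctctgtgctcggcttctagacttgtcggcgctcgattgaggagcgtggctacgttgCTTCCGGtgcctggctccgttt
The SNRPB window held 1 match and the SNRPB2 window 2 matches. Across all RefSeq windows of the same length, 8.52% of 35116 held the motif on either strand. Among the members it was found upstream of 6 of 9 genes, which were SNRPB, SNRPB2, SNRPC, SNRPD2, SNRPE and SNRPG. Counted by window it was in 8 of 14, and the windows of a gene can overlap. The GC box GGGCGG was in 42.6% of all windows and in 4 of the 14 member windows. Counted by gene it was upstream of 4 of the 9, SNRPA, SNRPC, SNRPD3 and SNRPF. TTGCATCA, a core of the stress response element bound by ATF4, was in 0.772% of all windows and upstream of 0 of the 9. The motifs were chosen with the levels known, and a match is a description of letters.

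The induced gene was checked first. UPF1 was at 3.24 to 8.57 TPM in the 3 GFP libraries, 94.5 to 185.8 TPM in UPF1-1 total RNA and 68.9 to 171.0 TPM in UPF1-2 total RNA, with no overlap of either UPF1 line with GFP. The 12261 genes of the deposited table together held 12.2% to 19.0% of the TPM scale in total RNA and 44.8% to 69.9% in the IPs. Read depth per library is unknown. Before library medians were set equal, the median gene had log2 IP over total RNA values of 2.40 for UPF1-1 and 2.38 for UPF1-2. Of 7 markers of HEK-293 cells, 5 were in the table, with a summed level of 15.7 to 37.9 TPM, while PAX2 and NEFM were not. Of 16 markers of fibroblasts, blood, endothelium and liver, only HBA1 was in the table, at 1.85 to 7.22 TPM. Replicate 3 stood apart from replicates 1 and 2 in every group, so differences were taken within replicate number.

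Within the GFP line the 10 mRNAs fell into 3 tiers of TPM, a scale per length. SNRPD2 had the highest mean level, 143.9 ± 13.1 TPM (SD, n = 3), followed by SNRPB at 102.1 ± 26.5, SNRPG at 93.5 ± 17.2, SNRPE at 67.6 ± 6.19 and SNRPC at 67.2 ± 19.9 TPM. The middle tier held SNRPD3 at 23.6 ± 3.36, SNRPA at 22.5 ± 6.85 and SNRPF at 21.0 ± 5.73 TPM. The lowest tier held SNRPB2 at 8.26 ± 0.87 and SNRPD1 at 7.87 ± 2.32 TPM. Neighbouring genes overlapped in range within each tier, except that the lowest SNRPG library, at 73.99 TPM, was just above the highest SNRPE library, at 73.91 TPM. No GFP library of 1 tier reached the next tier. The same order of neighbours across the tier borders, SNRPC above SNRPD3 and SNRPF above SNRPB2, was seen in 9 of 9 total RNA libraries of the 3 lines. SNRPG was above SNRPE in 9 of 9, SNRPD2 above SNRPB in 8 of 9, and SNRPB above SNRPG in 5 of 9. The mRNAs of proteins that sit together in the ring were thus present at unequal levels per length, with SNRPD2 and SNRPD1, which encode direct neighbours in the ring, at the top and bottom of the order.

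**Figure D1:**
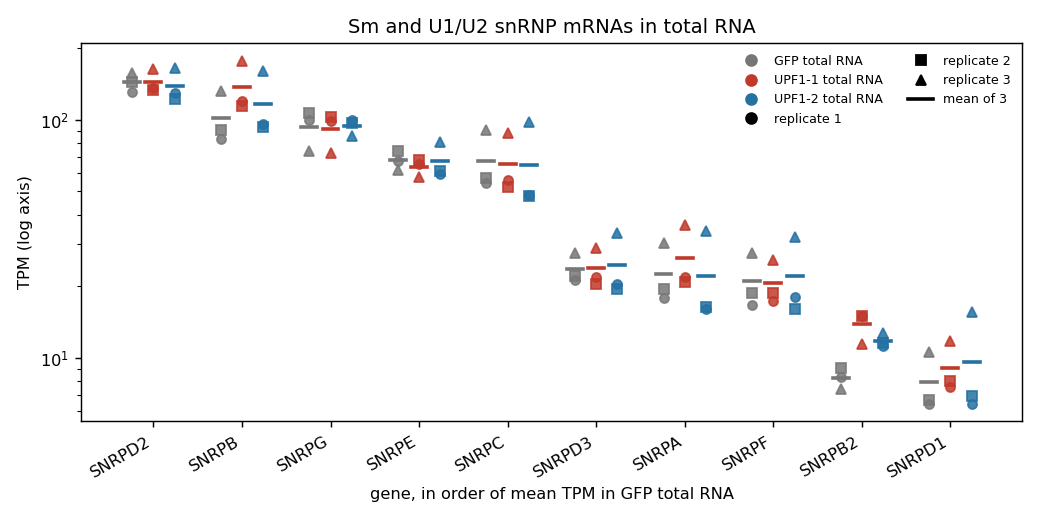
TPM (vertical log axis) of the 10 mRNAs in each total RNA library, ordered by their mean in the GFP line. Colours are the lines, marker shapes the replicates and short bars the means of 3. SNRPB2 is the gene whose UPF1-1 and UPF1-2 points all lie above its GFP points, which end at 9.1 TPM.

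The next comparison asked how total RNA of the UPF1-1 line differed from that of the GFP line. SNRPB2 and SNRPB rose and the other 8 mRNAs did not pass the test. With 2 of 10 members higher and 0 lower by limma at an adjusted p below 0.05, the members stand beside a background of 8.38% higher and 7.79% lower among 9325 genes tested. Their median difference was -0.09 on the log2 scale, beside -0.01 for all genes tested.

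SNRPB2, the U2B″ gene, was at 8.32, 9.10 and 7.36 TPM in GFP replicates 1, 2 and 3, and at 15.01, 15.04 and 11.40 TPM in UPF1-1. Every UPF1-1 library was above every GFP library, which was so for 6.62% of all genes tested in this direction. Within replicate numbers 1, 2 and 3 the log2 differences relative to the library medians were 0.63, 0.65 and 0.55. The fitted difference was 0.61 ± 0.06 (SE), or 1.53-fold on the log2(TPM + 0.5) scale, with a limma adjusted p of 0.00061. It stayed past the threshold without any 1 replicate, at limma adjusted p from 0.0040 to 0.024. Without the replicate block, the difference was the same size but its adjusted p was 0.77 by limma. In such bulk samples a change in the share of expressing cells and a change per cell cannot be told apart.

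SNRPB, the SmB/B′ gene, was at 83.0, 90.8 and 132.4 TPM in GFP and at 119.5, 114.6 and 177.4 TPM in UPF1-1 total RNA. The ranges overlapped, because GFP replicate 3 was above UPF1-1 replicates 1 and 2, but the UPF1-1 library was the higher in each of the 3 replicate numbers. The log2 differences by number were 0.34, 0.29 and 0.38. The fitted difference was 0.34 ± 0.07 (SE), or 1.26-fold, with a limma adjusted p of 0.017. This call was lost without replicate 2, with a limma adjusted p of 0.14, and without the block, with 0.39.

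The rest of the ring differed little between these lines. SNRPE, which had the largest negative value, was at 67.4, 73.9 and 61.5 TPM in GFP and 65.4, 67.8 and 57.7 TPM in UPF1-1, a log2 difference of -0.18 ± 0.07 (SE) with a limma adjusted p of 0.11. It was the lower in each of the 3 numbers, with overlapping ranges. SNRPC, SNRPF, SNRPG, SNRPD2 and SNRPD3 had values from -0.13 to -0.09, and SNRPD1 and SNRPA had 0.11 and 0.12, none past the threshold. SNRPD2, the most abundant mRNA of the group, was at 136.0, 133.3 and 162.9 TPM in UPF1-1 beside 130.9, 143.5 and 157.1 TPM in GFP, with overlapping ranges.

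For the UPF1-2 line the same GFP libraries served as the control, so the values below share them with those above. SNRPB2 alone rose. That is 1 of 10 members higher and 0 lower, beside 0.279% higher and 0.0965% lower among the 9325 genes tested, a total of 35 genes. SNRPB2 was at 11.21, 11.53 and 12.70 TPM in UPF1-2, each above the 3 GFP libraries given above, and such a separation was seen for 0.997% of all genes tested. The log2 differences by number were 0.52, 0.41 and 0.47. The fit gave 0.47 ± 0.06 (SE), or 1.38-fold, with a limma adjusted p of 0.015. The call was lost without any 1 replicate, with limma adjusted p of 0.14, 0.26 and 0.058 without replicates 1, 2 and 3, where 3 to 11 genes in all were called. It was also lost without the block (1.00) and without centring (0.57), while its size stayed between 0.44 and 0.49 in every alternative run.

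SNRPB was at 96.3, 93.1 and 160.6 TPM in UPF1-2, above GFP in replicate 1 and close to it in centred value in replicate 3. Its log2 differences by number were 0.32, 0.12 and 0.00, and the fitted 0.15 ± 0.07 (SE) did not pass, with a limma adjusted p of 0.46. The other 8 members had fitted values from -0.13 for SNRPC to 0.16 for SNRPD1, none past the threshold. SNRPD1 was at 6.39, 6.91 and 15.50 TPM in UPF1-2 and at 6.42, 6.65 and 10.55 TPM in GFP, with overlapping ranges.

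**Figure D2:**
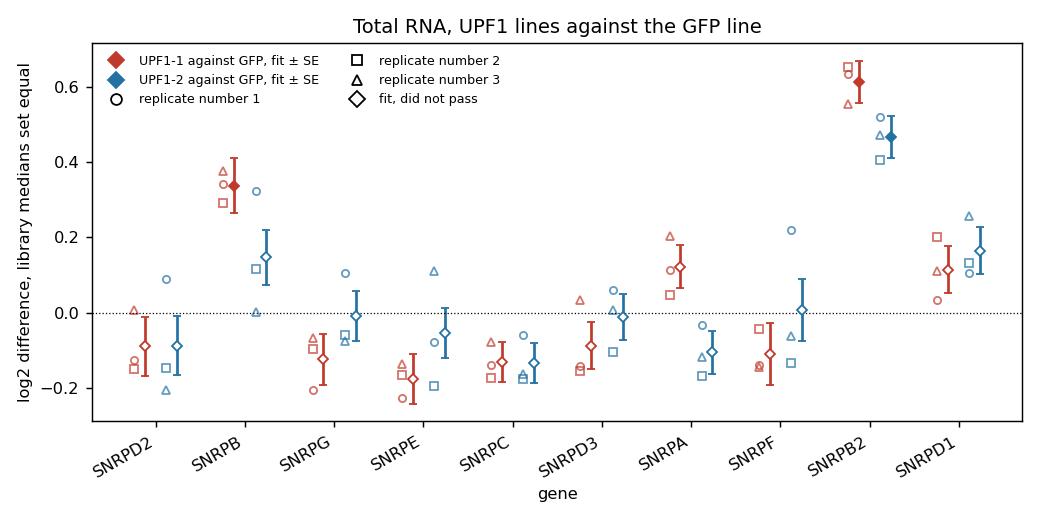
Log2 difference from the GFP line in total RNA, with library medians set equal, for UPF1-1 (red) and UPF1-2 (blue). Open small markers are the differences within replicate number and diamonds the limma fit ± SE, filled where the adjusted p is below 0.05. SNRPB2 has all 6 within-number values between 0.41 and 0.65, and SNRPB is filled for UPF1-1 only.

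Set directly against each other in total RNA, the UPF1 lines differed in 1 member. SNRPA, which encodes the A protein of the U1 snRNP, was at 21.89, 20.74 and 36.20 TPM in UPF1-1 and at 16.03, 16.31 and 34.00 TPM in UPF1-2. The ranges overlapped, but UPF1-1 was the higher in each number, by log2 differences of 0.15, 0.21 and 0.32. The fitted difference of UPF1-1 minus UPF1-2 was 0.23 ± 0.06 (SE), with a limma adjusted p of 0.041. With it, 1 of 10 members was higher and 0 lower, beside 5.49% higher and 4.02% lower among 9325 genes. In 8 of the 10 alternatives run it did not pass, among them each omission of 1 replicate (limma adjusted p of 0.073 to 0.24), a pseudocount of 0.1 (0.062) and upper-quartile scaling (0.062). Neither of the mRNAs that rose against GFP passed here. SNRPB2 differed between the UPF1 lines by 0.15 ± 0.06 (SE) and SNRPB by 0.19 ± 0.07, each with a limma adjusted p of 0.13. So the larger value of each with UPF1-1 was not shown to differ from that with UPF1-2.

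SNRPA1 encodes the A′ protein with which U2B″ binds the U2 snRNA, and it moved the other way from SNRPB2. It was at 13.69, 13.48 and 26.46 TPM in GFP, at 10.32, 10.18 and 16.46 TPM in UPF1-1 and at 10.62, 11.08 and 25.54 TPM in UPF1-2 total RNA. The UPF1-1 value was the lowest of the 3 lines in every replicate number. Against GFP it fell by 0.57 with UPF1-1 (log2, SE 0.06, limma adjusted p = 0.0011), while with UPF1-2 its value was -0.25 ± 0.06 (SE) and did not pass (0.17). It was also lower in UPF1-1 than in UPF1-2, with a log2 difference of -0.32 ± 0.06 (SE, limma adjusted p = 0.020). Without the block neither difference passed (0.37 and 1.00), and that between the UPF1 lines was also lost without replicate 1 (0.066) or 2 (0.14) and without centring (0.43). The ratio of SNRPB2 to SNRPA1 TPM was 0.61, 0.68 and 0.28 in GFP replicates 1, 2 and 3, and 1.46, 1.48 and 0.69 in UPF1-1. In UPF1-2 it was 1.06, 1.04 and 0.50, so in each replicate number the order was GFP lowest and UPF1-1 highest. That order follows from the levels of the 2 genes already given and is not a separate result. How many pairs of genes have such an order was not counted.

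Other genes of the snRNP pathway were taken from 7 lists, of which 84 genes were tested in total RNA. With UPF1-1 against GFP, 5 of the 84 were higher and 6 lower, beside 8.38% higher and 7.79% lower among all 9325 genes tested. Their median was -0.00058 beside -0.01 for all genes. The counts of the single lists that follow stand beside the same shares. Of the 12 other U1 and U2 snRNP proteins, 1 was higher and 1 lower, the latter being SNRPA1. Of 12 tested U1- and U2-associated factors 0 were higher and 3 lower, including U2SURP at -0.45, and of 21 genes of snRNP assembly and import 2 were higher and 0 lower. The 13 LSm genes and the 17 genes of the U4/U6 and U5 snRNPs each had 1 higher and 1 lower, while the 6 minor spliceosome genes and 3 snRNA entries tested (RNU12, RNU5E-1 and the U6 pseudogene symbol RNU6-722P) had 0 in either direction. The largest rise was 0.58 for SMN2, which encodes the SMN protein and has the near-identical copy SMN1, so its value is uncertain. LSM14B, an LSm-domain protein of mRNP granules, rose by 0.50. PRPF6, of the U5 snRNP and tri-snRNP, rose by 0.34 and SNRNP200, the U5 helicase that unwinds U4/U6, fell by 0.36. With UPF1-2 against GFP, 0 of 84 passed limma in either direction, beside 0.279% higher and 0.0965% lower of all genes, and 5 had an unadjusted p below 0.05. Between the UPF1 lines 2 were higher and 3 lower in UPF1-1, beside 5.49% higher and 4.02% lower of all genes. SF3B3, of the U2 SF3b complex, had 0.32 and LSM14B 0.33, while DDX46 (a U2 remodelling helicase, -0.38), U2AF1 (the 3′ splice site factor, -0.34) and SNRPA1 were lower. None of the listed genes named here for total RNA passed without the block, with limma adjusted p of 0.36 or more. SNRPN, the tissue variant of SmB/B′ with a near-identical coding sequence, was not analysed here.

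The IP comparisons asked how much of each mRNA was recovered with UPF1 relative to total RNA of the same replicate number. Most members were recovered less than the median gene, and SNRPD1 lay closest to it. By limma 9 of 10 were lower with UPF1-1 and 0 higher, beside 43.9% lower and 30.8% higher among 11969 genes tested. With UPF1-2 all 10 were lower and 0 higher, beside 44.2% lower and 31.5% higher. The members' medians were -1.71 and -1.78 on the log2 scale, against -0.16 and -0.15 for all genes tested. These directions are relative to the library medians. Without centring 6 members (SNRPA, SNRPB, SNRPB2, SNRPC, SNRPD1 and SNRPE) were called higher in the IP with each isoform, since on the TPM scale itself the median gene was 6.45 to 8.14 times as high in the IP as in total RNA with UPF1-1 and 6.06 to 8.05 times with UPF1-2.

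SNRPD3, the SmD3 gene, stood lowest. It was at 21.82, 20.46 and 29.03 TPM in UPF1-1 total RNA and at 5.18, 4.81 and 14.22 TPM in the UPF1-1 IP. In UPF1-2 it was at 20.51, 19.44 and 33.57 TPM in total RNA and at 6.40, 1.51 and 8.93 TPM in the IP. All 6 IP libraries were below all 6 total RNA libraries, and the share of all genes with such a separation was not counted. By limma without centring, 11464 of 11969 genes were called higher in the UPF1-1 IP and 150 lower. The IP to total ratios of TPM were 0.24, 0.24 and 0.49 with UPF1-1 and 0.31, 0.077 and 0.27 with UPF1-2. Relative to the medians, the fitted log2 values were -4.21 ± 0.27 (SE) with UPF1-1 (limma adjusted p = 2.6e-06) and -4.79 ± 0.27 with UPF1-2 (1.3e-06). Of 11969 genes, 37 were lower with UPF1-1 and 19 with UPF1-2. Without centring SNRPD3 was still lower, at -1.65 and -2.26. UPF1-2 replicate 2 was the lowest library, and without replicate 2 the values were -4.14 and -4.29. Whether the SNRPD3 values are of 1 transcript or of the whole gene is not given, and whether its low recovery depends on this was not tested.

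SNRPD1, the SmD1 gene, stood at the other end. It was at 7.52, 7.96 and 11.80 TPM in UPF1-1 total RNA and at 41.55, 37.91 and 84.09 TPM in the UPF1-1 IP. In UPF1-2 it was at 6.39, 6.91 and 15.50 TPM in total RNA and 34.65, 33.41 and 73.16 TPM in the IP. Its IP to total ratios were 4.76 to 7.13 with UPF1-1 and 4.72 to 5.42 with UPF1-2. In each replicate number they were below those of the median gene, which were 6.45 to 8.14 and 6.06 to 8.05. The fitted value of -0.11 ± 0.07 (SE) with UPF1-1 did not pass (limma adjusted p = 0.18) and turned to 0.04 with a pseudocount of 1. With UPF1-2 the value was -0.28 ± 0.07 (0.0052), and the call was lost without replicate 1 (0.090), without the block (0.15) and with a pseudocount of 1 (0.14).

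Between these ends the core ring was low. SNRPD2, SNRPG and SNRPF had fitted values of -2.81 ± 0.09, -2.60 ± 0.07 and -2.38 ± 0.11 (SE) with UPF1-1, and -2.56, -2.57 and -2.23 with UPF1-2. On the TPM scale SNRPD2 was at 136.0, 133.3 and 162.9 in UPF1-1 total RNA and at 104.8, 114.7 and 146.8 in its IP, with overlapping ranges. SNRPG was at 98.4, 102.5 and 72.8 TPM in UPF1-1 total RNA and at 82.2, 88.9 and 92.9 TPM in the IP, again overlapping. These mRNAs thus kept about the same TPM in both kinds of library while the median gene rose. Without centring, SNRPF and SNRPG passed with neither isoform, and SNRPD2 was lower with UPF1-1 (-0.25, limma adjusted p = 0.036) but did not pass with UPF1-2.

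SNRPE had -1.93 ± 0.07 with UPF1-1 and -1.94 ± 0.07 (SE) with UPF1-2. SNRPB had -1.31 ± 0.12 and -1.19 ± 0.12. Its TPM rose from 119.5, 114.6 and 177.4 in UPF1-1 total RNA to 280.8, 294.3 and 402.3 in the IP, without overlap. Such a rise was common, as 11464 of 11969 genes were called higher in this IP without centring. Among the snRNP-specific proteins, SNRPC had -1.50 ± 0.11 and -1.62 ± 0.11 with UPF1-1 and UPF1-2, and SNRPB2 -0.79 ± 0.09 and -0.53 ± 0.09, the latter with a limma adjusted p of 0.10 without the block. SNRPB2 was at 45.0, 43.8 and 56.5 TPM in the UPF1-1 IP and 48.8, 42.5 and 55.2 TPM in the UPF1-2 IP. All of them were above every total RNA library of this gene, which ended at 15.04 TPM, again a common rise. The U2B″ mRNA was among the better recovered members, with IP to total ratios of 2.91 to 4.95 with UPF1-1 and 3.69 to 4.35 with UPF1-2.

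**Figure D3:**
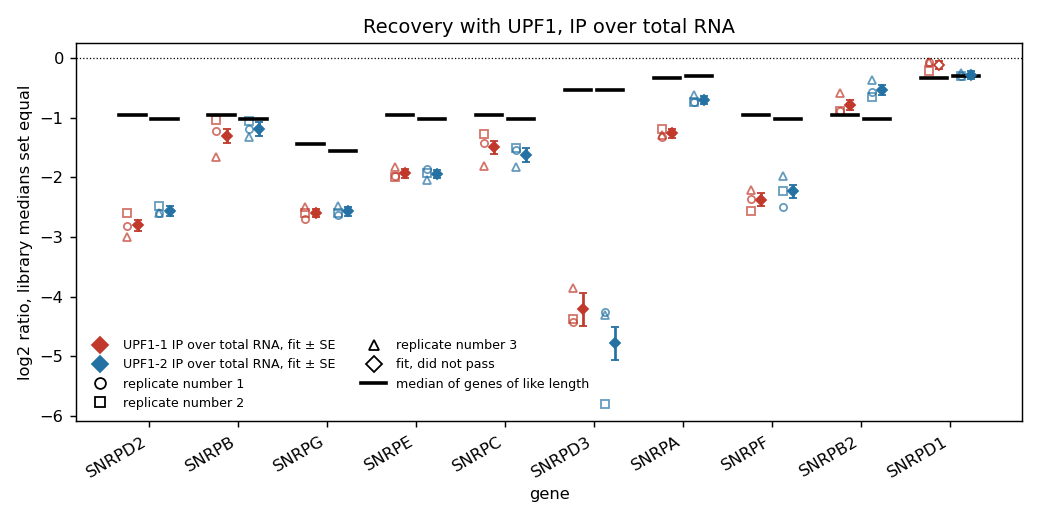
Log2 ratio of IP to total RNA with library medians set equal, for UPF1-1 (red) and UPF1-2 (blue). Small open markers are ratios within replicate number, diamonds the limma fit ± SE (open where the adjusted p is 0.05 or more) and black bars the median of genes in the same length decile. SNRPD3 lies near -4.21 and -4.79, far below its bars at -0.54 and -0.53, and SNRPD1 lies at or above its bars.

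Recovery varied with length across all genes, and the members are short. A length scale was formed as the deposited estimated counts per TPM, relative to the median gene. Its log correlated with recovery across 11957 genes at r = 0.52 for UPF1-1 and 0.54 for UPF1-2, a description over genes that are not independent and share their libraries. Members were at 0.139 (SNRPG) to 0.765 (SNRPD1) of the median gene on that scale. Each was therefore also set beside the genes of its own decile of the scale.

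SNRPB2, at 0.433 of the median gene, had -0.79 with UPF1-1 beside a median of -0.95 in its decile. SNRPD1 had -0.11 beside -0.33. SNRPB had -1.31 beside -0.95, with 34.9% of its decile lower. These 3, and SNRPC at -1.50 with 27.8% of its decile lower, were between the quartiles of genes of like length with UPF1-1. SNRPA had -1.26 beside -0.33 with 10.7% of its decile lower, and SNRPE had -1.93 beside -0.95 with 14.3% lower, both below the lower quartile. With UPF1-2, 31.5% of the decile was lower than SNRPA, 23.5% lower than SNRPC and 13.1% lower than SNRPE. SNRPD2 had -2.81 beside -0.95, with 21 of 1196 genes of its decile lower, and SNRPF had -2.38 with 74 of 1196 lower. SNRPG, the shortest, had -2.60 beside -1.44 with 16.5% of its decile lower. For SNRPD3, at 0.511 of the median gene, the median of its decile was -0.54, and 1 of 1195 genes was lower with UPF1-1 and 0 of 1195 with UPF1-2. Across the 10 members themselves, recovery and log length scale had r = 0.38 (Spearman 0.48) with UPF1-1 and 0.35 (0.52) with UPF1-2, as a description over genes that share libraries.

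**Figure D4:**
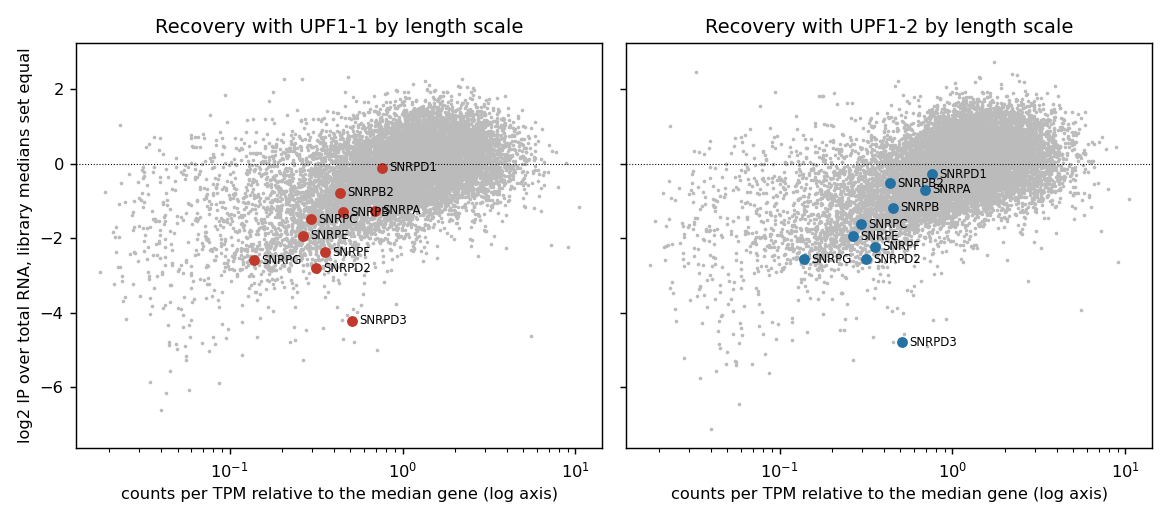
Recovery (vertical, log2 IP over total RNA with library medians set equal) against the length scale (horizontal log axis, estimated counts per TPM relative to the median gene), for UPF1-1 on the left and UPF1-2 on the right. Grey points are all genes tested and coloured points the members. SNRPD3 lies at the lower edge of the cloud at 0.511 of the median length, while SNRPD1 and SNRPB2 lie inside it.

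The isoforms were then compared in the recovery itself, as the difference of the IP over total RNA values of UPF1-1 and UPF1-2. SNRPA was recovered less with UPF1-1. It was at 48.36, 48.41 and 107.80 TPM in the UPF1-1 IP and at 61.42, 56.30 and 122.40 TPM in the UPF1-2 IP. The IP ranges overlapped, but the UPF1-2 IP was the higher in each number. The IP to total ratios were 2.21, 2.33 and 2.98 with UPF1-1 and 3.83, 3.45 and 3.60 with UPF1-2. These did not overlap, but the share of all genes with such a separation was not counted. Relative to the medians, the difference in recovery was -0.58, -0.45 and -0.66 by number. The fitted value was -0.57 ± 0.10 (SE), with a limma adjusted p of 0.017. With it 1 of 10 members was lower and 0 higher, beside 6.27% lower and 4.43% higher among 11969 genes. Of the 12 other U1 and U2 snRNP proteins, 4 were lower and 0 higher, with a median of -0.53, so a lower recovery with UPF1-1 was not particular to SNRPA.

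Both kinds of library contributed to the SNRPA value. Between the IPs alone UPF1-1 minus UPF1-2 was -0.42, -0.24 and -0.30 by number, and between the total RNAs it was 0.17, 0.22 and 0.37. The call was lost without replicate 1 (limma adjusted p = 0.31) or 2 (0.078), without the block (0.67) and without centring (0.17), where limma called 0 genes in all (846 to 2513 at an unadjusted p below 0.05).

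**Figure D5:**
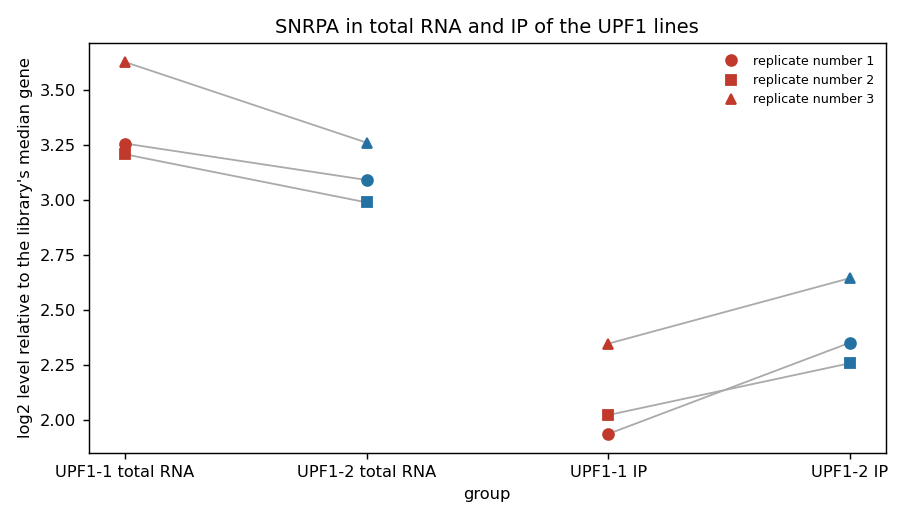
Level of SNRPA as log2 relative to the median gene of each library (vertical) in total RNA and IP of the UPF1 lines, with grey lines joining libraries of the same replicate number. In each number the total RNA level is higher in UPF1-1 and the IP level is higher in UPF1-2, where the means differ by 0.25 and -0.32.

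No other member passed in this comparison. SNRPD3 had the largest value of the opposite sign, 0.57 ± 0.39 (SE, limma adjusted p = 0.37), with -0.17, 1.43 and 0.46 by number, so 1 number went against the others. SNRPB2 had -0.25 ± 0.13 and SNRPD2 -0.25 ± 0.12, each negative in all 3 numbers, with limma adjusted p of 0.23 and 0.22. SNRPB, SNRPC, SNRPD1, SNRPE, SNRPF and SNRPG lay between -0.15 and 0.17.

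Recovery of the listed partners went both ways, as it did over all genes. Of 86 listed genes tested in the IP fit, 22 were higher and 43 lower with UPF1-1, with a median of -0.26. All genes tested had 30.8% higher and 43.9% lower. With UPF1-2, 32 were higher and 40 lower, with a median of -0.17, beside 31.5% and 44.2% of all genes. CD2BP2 (a U5 snRNP protein) and PHAX (the snRNA export adaptor) reached 1.18 and 1.17 with UPF1-1, and SF3B3 and SF3B1 of SF3b reached 1.58 and 1.57 with UPF1-2. The LSm genes, relatives of the Sm genes, had 3 higher and 7 lower of 13 with UPF1-1 and 3 higher and 8 lower with UPF1-2, with LSM7 at -2.74 (UPF1-1) and LSM6 at -2.60 (UPF1-2). Of 5 spliceosomal snRNA entries in the table, 3 carry U6 pseudogene symbols (RNU6-1217P, RNU6-1219P and RNU6-722P). All 5 were called lower with both isoforms, beside 43.9% and 44.2% of all genes, but this count is not read as a result. RNU6-1217P and RNU6-1219P did not pass the filter in total RNA, so they entered the IP fit only with the help of IP libraries. Both, and RNU5E-1, are also among the 86 listed genes. The snRNA gene RNU5E-1 had -4.19 and -3.95, and RNU12, the U12 snRNA, had -3.43 and -3.78. RNU5E-1 passed the filter only through total RNA, because its IP libraries were at 0.17 to 0.45 TPM, under the pseudocount of 0.5. Its low value is therefore partly set by that filter and is not read as a result. Between isoforms 1 of the 86 was higher with UPF1-1 and 18 were lower, beside 4.43% and 6.27% of all genes, and with equal upper quartiles the split over all genes turned from 530 higher and 750 lower to 846 and 459. The lowest were SNRNP200 at -0.98, GEMIN5 (the SMN-complex protein that binds snRNA) at -0.81 and PRPF8 (the U5 scaffold of the spliceosome) at -0.74. SNRNP48, of the U11/U12 snRNP, was higher at 0.89. Without the block 0 genes in all passed in this comparison by limma, although 846 had an unadjusted p below 0.05.

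Members did not share a single profile over the libraries. On centred log2(TPM + 0.5), each member was correlated with the mean of the other 9, as a description over libraries that share their replicate number. Over the 9 total RNA libraries r ran from -0.72 for SNRPC and -0.63 for SNRPD1 to 0.74 for SNRPD2. Over all 15 libraries, where the IPs differ most from total RNA, it was 0.33 for SNRPD1, 0.57 for SNRPB2 and 0.90 to 0.99 for the other 8. Of other genes with a mean of at least 5 TPM, those most like the mean member profile over the 9 libraries were KANSL2 and REXO2 (both 0.97), RP11-286N22.8, SEPW1 and CETN2 (each 0.96). Over the 15 libraries they were NDUFB8, TRMT112, RANBP1, RPS21 and PIN4, all at r = 1.00 after rounding.

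Some members have many processed copies, which limits how their values can be read. The reference names list 20 pseudogenes of SNRPG, 18 of SNRPC, 10 of SNRPE, 4 of SNRPF and 2 of SNRPD2, 1 each of SNRPB and SNRPB2, and 0 of SNRPA, SNRPD1 and SNRPD3 under such symbols. Of these only SNRPEP4 was in the table. How reads were split between a gene and its copies was not tested, so the values of SNRPG, SNRPC and SNRPE are uncertain in that respect. In the authors' deposited table, sleuth p-values for UPF1-1 against GFP were 0.041 for SNRPB and 0.058 for SNRPB2, and every member's q-value was 1.00 after rounding in all 3 comparisons.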

How the data were processed

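The deposited table gave TPM per library for 15 libraries, per the file headers, and 1 transcript identifier per gene. Whether a value is of that transcript or of the whole gene is not given in the sources used here. Per the submitters' processing notes the tools were cutadapt, kallisto and sleuth with the build hg19, and no versions are given; per the labels' protocols ribosomal RNA was depleted before library preparation. The lowest group mean in total RNA was 0.25 TPM.

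Here TPM + 0.5 was log2 transformed, library medians were set equal, and a gene was tested if 3 or more of the fitted libraries had 1 TPM or more. The test was limma-trend (limma 3.58.1, R 4.3.3), 2-sided, with Benjamini-Hochberg adjustment over all genes tested and a threshold of 0.05. The total RNA fit had 9 libraries and 9325 genes, with replicate number as a block. The IP fit had 12 libraries and 11969 genes, with isoform and number as the block, and the isoform difference was the difference of its IP effects. The blocked fits were also run on simulated data with independent noise in each library, which cannot test the choice of block or of centring.

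The number was used as a pair because same-numbered libraries deviated together. After group means were removed, r ran from 0.70 to 0.95 for the 9 pairs of total RNA libraries and from 0.57 to 0.92 for the 18 pairs of the IP fit. Replicates 1 and 2 of different groups correlated at 0.64 to 0.80 and 0.59 to 0.75, and replicate 3 against either at -0.89 to -0.72 and -0.86 to -0.68, so the values set replicate 3 apart. The authors' deposited ratios of IP to Input equalled TPM ratios formed within number in 100% of entries, within 1e-06. The labels do not say whether replicates were separate cultures, so p-values measure only the spread between these samples. In the main fits this is the spread left once the blocks were fitted, so differences between replicate numbers are not in it.

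The authors' deposited p-values and q-values from sleuth, and their mean natural log estimated counts, were used as given, the latter for the length scale, cut into 10 deciles. The deposited log2 fold columns were read but not used for tests.

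Members, lists and tests were chosen with earlier results of these data known. All 10 members are named. UPF1 is named as a check. Listed genes past the threshold are named, or the 3 largest rises and 3 largest falls where over 8 passed. A listed gene that this rule names in the IP comparisons is not reported here. Alternatives were no block, no centring, upper-quartile scaling, pseudocounts of 0.1 and 1, no filter, and leaving out each replicate number.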

Additional observations from a re-analysis of the deposited data

Results flagged for a closer look

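SNRPA is listed here because the test of the difference between the isoforms passed for it. In the same comparison 4 of the 12 other U1 and U2 snRNP proteins were also called lower and 0 higher. Recovery with UPF1-1 minus recovery with UPF1-2 was -0.57 ± 0.10 (log2, SE) with a limma adjusted p of 0.017, and it was negative in 3 of 3 replicate numbers. The value stayed between -0.62 and -0.48 in the alternatives with equal medians or quartiles, and 5 of 10 alternatives called it.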

How the results depend on the processing

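Without the replicate block, at equal medians, the genes called were 16 for UPF1-1 against GFP, 3 for UPF1-2 against GFP, 0 between the UPF1 lines (477 at an unadjusted limma p below 0.05) and 0 for the isoform difference in recovery (846), against 1507, 35, 887 and 1280. With the replicate block but no centring they were 301, 6, 89 and 0 (1878), and with neither 2, 1, 0 (89) and 0 (340). A pseudocount of 1 gave 810 for the isoform difference. Leaving out 1 replicate gave 206 to 1141, 3 to 11, 17 to 451 and 0 to 1104 genes, with 0 without replicate 1 (1599 unadjusted) or 2 (2513). Upper-quartile scaling moved the split from 781 higher and 726 lower to 638 and 976 for UPF1-1 against GFP, and from 512 and 375 to 347 and 591 between the UPF1 lines. Of members, 2, 1, 1 and 1 were called in these comparisons. None was called in any of them without the block (0), and without centring alone only UPF1-1 against GFP kept calls. Upper-quartile scaling and a pseudocount of 0.1 also gave 0 between the UPF1 lines. Leaving out 1 replicate gave 1 to 2, 0 to 0, 0 to 0 and 0 to 1 members.

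In the IPs without centring, 6 members were higher with each isoform, and 2 lower with UPF1-1 (1 without the block) and 1 with UPF1-2. Positive values replaced negative ones there for SNRPA (1.30 with UPF1-1 and 1.83 with UPF1-2), SNRPB (1.26 and 1.34), SNRPB2 (1.77 and 2.00), SNRPC (1.06 and 0.90), SNRPD1 (2.45 and 2.25), SNRPE (0.63 and 0.58) and SNRPF (0.18 and 0.30).

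Reversals elsewhere were of members that did not pass. For UPF1-1 against GFP, SNRPD3 turned to 0.0015 without centring. For UPF1-2 against GFP, SNRPD3 and SNRPG turned to 0.017 and 0.019 without centring and to 0.0018 and 0.0039 with upper quartiles. Leaving out 1 replicate, SNRPD3 ran from -0.047 to 0.033, SNRPE from -0.11 to 0.015, SNRPF from -0.097 to 0.078 and SNRPG from -0.066 to 0.045. Between the UPF1 lines SNRPC turned to -0.039 with upper quartiles and -0.011 with a pseudocount of 0.1, SNRPD1 to 0.011 without centring, and SNRPD2 to 0.059 without centring, 0.010 with a pseudocount of 1 and 0.028 without a filter. Leaving out 1 replicate, SNRPC ran from -0.057 to 0.043, SNRPD2 from -0.13 to 0.10 and SNRPF from -0.22 to 0.0020. For the isoform difference SNRPG turned to 0.0032 without centring and 0.054 with upper quartiles, and leaving out 1 replicate SNRPB ran from -0.18 to 0.0062 and SNRPE from -0.081 to 0.075. SNRPD1 turned to 0.043 with a pseudocount of 1 for UPF1-1 IP over total RNA. The cause was not tested.

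Apart from counts, 697 values of single members or listed genes kept their direction and side of the threshold, 113 kept the direction only, 1 newly passed and 59 reversed. Apart from the calls given here and in the results, leaving out the replicate block at equal medians changed no call of a member. Depth is unknown, so counting error at low TPM was not assessed.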

Other observations

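In total RNA, between replicate 3 and the mean of replicates 1 and 2, 8 members had the same sign in all 3 lines. The share of all genes doing so was not counted. Same-numbered total RNA libraries deviated together across genes (r of 0.70 to 0.95), so a shared sign need not be particular to the members. Relative to the library medians, SNRPG was lower in replicate 3 than in the mean of 1 and 2 by log2 values of -0.95 in GFP, -0.86 in UPF1-1 and -1.05 in UPF1-2 total RNA. SNRPB2 had -0.70, -0.79 and -0.69, and SNRPE -0.67, -0.61 and -0.42. SNRPD2 had -0.27, -0.13 and -0.45. SNRPA (0.22, 0.35 and 0.21), SNRPC (0.22, 0.30 and 0.18), SNRPD1 (0.18, 0.17 and 0.32) and SNRPF (0.15, 0.10 and 0.05) were higher, while SNRPB and SNRPD3 had both signs. The gap of SNRPB2 between replicates was thus larger than its fitted difference of 0.61 between the UPF1-1 and GFP lines. The same gap correlated with the log length scale across 9325 genes at r = 0.23 in GFP, 0.20 in UPF1-1 and 0.32 in UPF1-2 total RNA, as a description over genes that share libraries. In the IPs SNRPG was again lower in replicate 3 (-0.66 with UPF1-1 and -0.90 with UPF1-2), while SNRPD3 was higher, by 0.64 and 0.63.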
